A study of Mus musculus with 282 samples.

Results

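The blood-brain barrier genes described here are 7 genes that mark the capillary endothelium of the brain: Cldn5, Pecam1, Slc2a1, Slco1a4, Abcb1a, Flt1 and Itm2a. The rule takes them by gene name and uses no measured value, and a member was taken as measured where a locus of the deposited transcript assembly carried its name. This gave 6 of the 7 genes, out of 14079 gene loci in the expression table. No deposited locus carried the name Abcb1a, so the P-glycoprotein gene was not analysed here. The samples are whole hypothalami of 282 male mice fed a high fat, high sugar diet, 1 library per mouse, from the Hybrid Mouse Diversity Panel (HMDP). The strain of all but 1 mouse was known. They came from 43 BXD strains (C57BL/6J crossed with DBA/2J), 18 AXB/BXA strains (A/J and C57BL/6J), 6 BXH strains (C57BL/6J and C3H/HeJ), 7 CXB strains (BALB/cJ and C57BL/6J) and 25 classical inbred strains, among them these 5 parents. All mice shared sex and diet, so only differences among strains and among mice of 1 strain were compared, with 3 mice in 85 strains, 2 mice in 12 and 1 mouse in 2.

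Endothelial cells of brain capillaries are sealed to each other by tight junctions and carry few vesicles, so that nutrients, hormones and drugs enter the brain mainly through transporters and receptors. Pericytes and the end feet of astrocytes wrap these vessels, and Wnt signals to the endothelium keep its barrier properties. In parts of the hypothalamus, such as the median eminence, capillaries are instead fenestrated, which lets hormones pass between blood and brain, and are marked by Plvap. Values are FPKM, fragments per kilobase of transcript relative to the fragments mapped in the library, and in bulk tissue fewer endothelial cells and less RNA per cell cannot be told apart.

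The tissue label was checked against hypothalamic peptide genes: Hcrt, Pmch, Avp and Pomc were above 1 FPKM in all 282 mice. A pair of libraries needed separate treatment. In mouse OB-547, one of the BXD-12/TyJ mice, the FPKM of all genes summed to 792801, against a median of 337467 and a next highest of 463433. It held the highest Cldn5 value of all mice (83.5 FPKM), the highest Itm2a value (37.0 FPKM), and the lowest Slc2a1 (5.25 FPKM) and Flt1 (3.54 FPKM) values. Results that rest on it are given with and without this mouse. Mouse OB-627 carried the names of 2 strains in its labels and entered no comparison between strains. It had 14.2 FPKM of Cldn5 and 25.04 FPKM of Slc2a1, inside the range of the other mice.

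The promoters of 4 members are printed because these genes form the contrasting pairs of the results below: Flt1 and Slco1a4 varied together within strains, and Cldn5 and Slc2a1 are the junction protein and the glucose carrier of the barrier. Each window runs from 250 bases before to 50 bases after the RefSeq start in GRCm38.p6 (mm10), on the strand of the gene: chr5:147725962-147726261 (minus) for Flt1, chr6:141856171-141856470 (minus) for Slco1a4, chr16:18776597-18776896 (plus) for Cldn5 and chr4:119108495-119108794 (plus) for Slc2a1. Capitals mark matches to 5 motifs, searched on either strand. The letters searched were AGGAAG for the core that ETS factors bind. For the hypoxia response core of genes induced by low oxygen they were ACGTG. The box bound by Sp1 and its relatives, the GC box, was searched as GGGCGG. The TATA box, which lies near the start of many genes, was searched as TATAAA. The site of the Wnt effectors TCF and LEF was searched as ATCAAAG.
Flt1: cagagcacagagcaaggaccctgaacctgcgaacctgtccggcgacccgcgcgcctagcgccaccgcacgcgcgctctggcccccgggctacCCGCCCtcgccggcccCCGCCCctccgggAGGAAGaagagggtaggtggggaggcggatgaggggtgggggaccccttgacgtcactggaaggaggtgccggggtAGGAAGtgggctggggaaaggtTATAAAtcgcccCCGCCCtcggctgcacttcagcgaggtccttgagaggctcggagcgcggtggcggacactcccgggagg
Slco1a4: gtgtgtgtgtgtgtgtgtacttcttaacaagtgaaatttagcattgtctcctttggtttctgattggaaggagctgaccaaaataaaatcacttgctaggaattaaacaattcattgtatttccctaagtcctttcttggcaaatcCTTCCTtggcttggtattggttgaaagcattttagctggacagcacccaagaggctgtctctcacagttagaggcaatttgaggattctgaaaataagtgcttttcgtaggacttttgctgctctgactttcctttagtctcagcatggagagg
Cldn5: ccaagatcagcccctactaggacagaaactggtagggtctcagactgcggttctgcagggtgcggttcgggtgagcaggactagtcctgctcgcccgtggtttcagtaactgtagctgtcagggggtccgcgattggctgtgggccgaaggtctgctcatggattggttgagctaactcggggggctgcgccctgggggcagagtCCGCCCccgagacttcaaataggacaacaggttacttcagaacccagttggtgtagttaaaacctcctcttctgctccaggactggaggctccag
Slc2a1: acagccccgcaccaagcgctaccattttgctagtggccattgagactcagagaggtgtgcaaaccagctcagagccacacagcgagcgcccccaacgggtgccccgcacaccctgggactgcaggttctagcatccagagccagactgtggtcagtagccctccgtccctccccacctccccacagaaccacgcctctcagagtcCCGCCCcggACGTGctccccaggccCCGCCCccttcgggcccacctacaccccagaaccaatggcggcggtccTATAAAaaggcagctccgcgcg
The Flt1 window holds 3 GC boxes, 2 ETS cores and 1 TATA box, at 70.7% G and C. The Slco1a4 window holds 1 ETS core and none of the other letters, at 40.7% G and C, below the median of 52.7% over 32851 promoters. The Cldn5 window holds 1 GC box, and the Slc2a1 window holds 2 GC boxes, 1 TATA box and 1 hypoxia response core. Of all promoters of this length, 35.4% hold the ETS core, 35.7% the GC box, 19.6% the hypoxia response core, 13.6% the TATA box and 3.73% the TCF/LEF site, which none of the 4 windows holds. RefSeq promoters were also found for Itm2a and Abcb1a, so 6 of the 7 members matched. The nearest start of the deposited assembly lay 0 bases from the RefSeq start for Cldn5 and Flt1, 21 bases for Slco1a4 and 34 bases for Slc2a1. A match of letters is a description of the sequence and not a shown binding site.

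All 6 measured members were expressed in every mouse. Slc2a1, which encodes the glucose carrier GLUT1, had the highest level at 28.7 ± 4.56 FPKM (SD, n = 282). Itm2a, a small membrane protein enriched in brain endothelium, followed at 20.8 ± 2.87 FPKM. Cldn5, the main claudin of the endothelial tight junction, had 15.6 ± 5.01 FPKM, and 15.4 ± 2.94 without OB-547. Slco1a4, which carries organic anions such as bile salts and steroid conjugates, had 13.5 ± 2.59 FPKM. Flt1, the VEGF receptor VEGFR1, had 9.54 ± 1.59 FPKM, and Pecam1, an adhesion molecule of the endothelial cell border, had 6.12 ± 0.918 FPKM. FPKM is scaled to length, so these levels can be set beside each other. The SDs of the neighbours Cldn5 and Slco1a4 overlap, as do those of Itm2a and Cldn5, while Slc2a1 and Pecam1 stood at the ends of the order.

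The members lie on 6 chromosomes, with spans in mm10 of the assembled transcripts. Cldn5 is a single exon on chromosome 16 from 18776847 to 18778260. Flt1 lies on chromosome 5 from 147561604 to 147726011, Pecam1 on chromosome 11 from 106654217 to 106715394, and Slc2a1 on chromosome 4 from 119106130 to 119139901. Slco1a4 lies on chromosome 6 from 141805248 to 141856333, and Itm2a on chromosome X from 107397099 to 107403376. Each of these loci carries 1 gene name, so none of the values is a sum over merged neighbours. Slco1a4 belongs to a cluster of related transporter genes, and reads shared with its relatives could not be separated here.

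The strains differed in all 6 members. In limma's moderated F test over 99 strains on log2(FPKM + 1), adjusted over all genes by the Benjamini-Hochberg method at 0.05, all 6 passed, on a background of 75.4% of all genes. The adjusted p was 2.80e-10 for Itm2a, 2.41e-09 for Cldn5, 4.63e-07 for Slc2a1, 1.38e-05 for Slco1a4, 3.48e-05 for Flt1 and 0.00288 for Pecam1. The strain share of variance is an intraclass correlation, near 0 where sharing a strain makes mice no more similar and at 1 where mice of a strain are identical. It was 0.42 for Itm2a, 0.39 for Cldn5, 0.33 for Slc2a1, 0.28 for Slco1a4, 0.27 for Flt1 and 0.19 for Pecam1. Their median of 0.30 compares with 0.22 over all genes. Without OB-547 the share of Slc2a1 was 0.49, and the medians were 0.37 for the members and 0.25 for all genes. Pecam1 was the member with the lowest share, below the median of all genes. With the mouse numbered 2 of each strain left out, Flt1, Pecam1 and Slco1a4 no longer passed (adjusted p = 0.127, 0.0860 and 0.0565 in limma), and without the mouse numbered 3 Pecam1 did not (0.114).

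**Figure D1:**
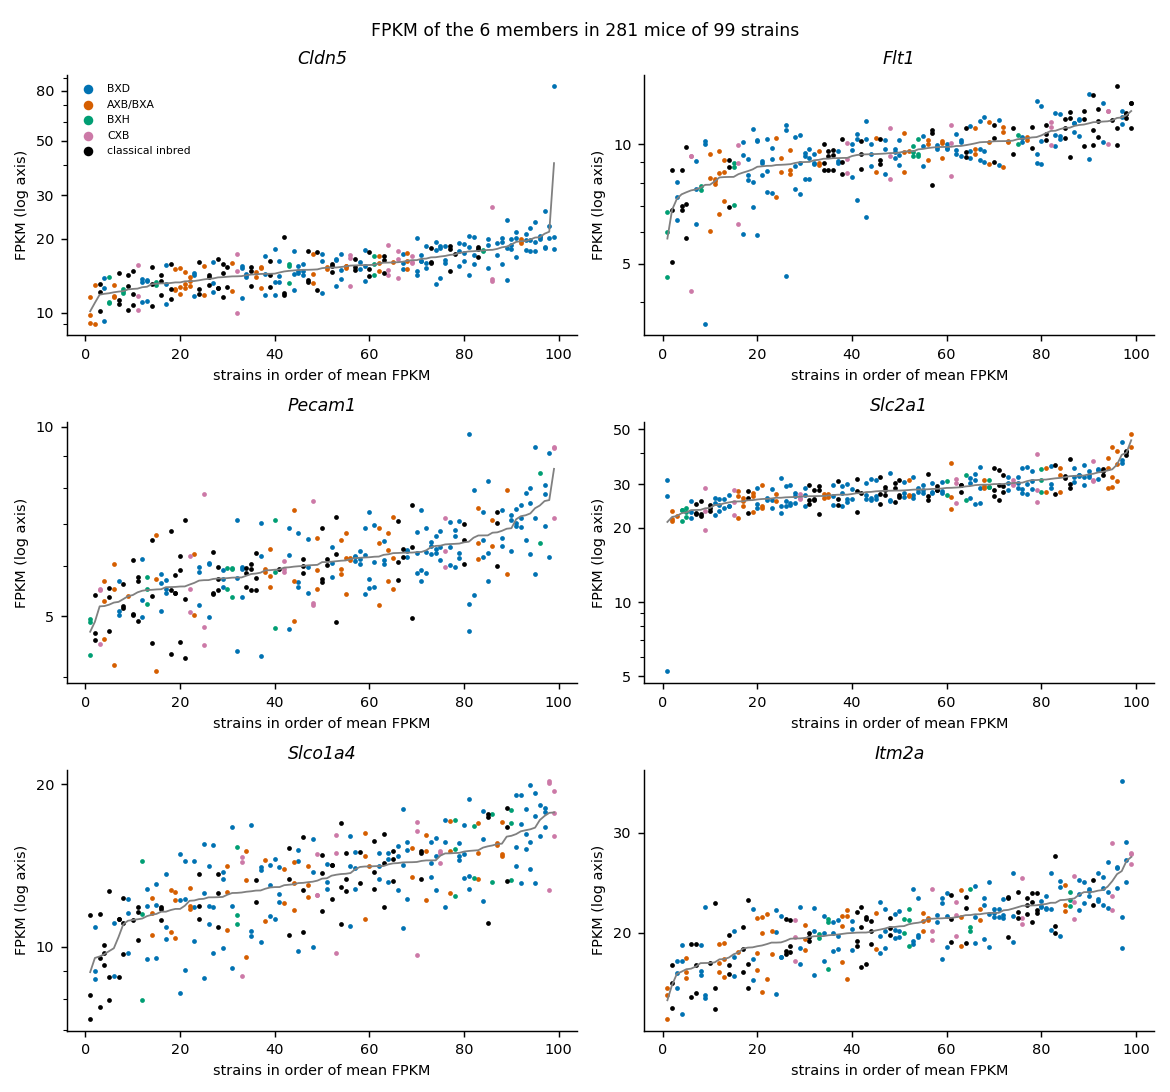
FPKM of each measured member (log axis) in the mice of known strain, with the 99 strains of each panel in order of their mean, points coloured by strain set and a grey line through the strain means. Strain means of Slc2a1 run from 21.1 to 45.2 FPKM and those of Pecam1 from 4.72 to 8.57, and the single high Cldn5 point at 83.5 FPKM and low Slc2a1 point at 5.25 FPKM are mouse OB-547.

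Slc2a1 had its highest strain mean in BXA-24/PgnJ. The 2 mice of this strain had 42.4 and 47.9 FPKM, above every mouse outside it except 1 BXD-16/TyJ mouse at 44.4. LG/J followed with 39.4, 40.6 and 40.7 FPKM and BXD-16/TyJ with 36.4, 37.4 and 44.4. At the low end, AXB-15/PgnJ had 21.2, 21.7 and 23.4 FPKM, and the single AXB-12/PgnJ mouse had 22.3. BXD-12/TyJ had the lowest mean only through OB-547, since its other 2 mice had 26.8 and 31.3 FPKM. Against the mean of all strains, Slc2a1 was higher by 0.65 ± 0.14 (log2, SE) in BXA-24/PgnJ, by 0.49 ± 0.11 in LG/J and by 0.46 ± 0.11 in BXD-16/TyJ, with adjusted p of 0.000243, 0.000937 and 0.00258 in limma, and it was lower in AXB-15/PgnJ, by -0.34 ± 0.11 (0.0449).

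Cldn5 was lowest in BXA-2/PgnJ, whose mice had 9.05, 9.78 and 11.5 FPKM. The difference from all strains was -0.55 ± 0.13 (adjusted p = 0.0017 in limma). AXB-2/PgnJ (9.01 and 12.9 FPKM) and 129X1/SvJ (10.2, 12.2 and 13.1 FPKM) came next. The highest strains were BXD strains: BXD-11/TyJ had 20.1 and 22.5 FPKM, BXD-39/TyJ had 18.3, 18.5 and 26.0, and BXD51 had 19.96, 20.4 and 20.4. The last 2 passed the test, by 0.42 ± 0.13 (adjusted p = 0.0307) and 0.39 ± 0.13 (0.0498). BXD-12/TyJ had the highest mean of 40.6 FPKM through OB-547, beside mice of 18.1 and 20.3.

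Flt1 and Pecam1 shared their lowest strain, BXH-9/TyJ. Its mice had 4.62, 6.01 and 6.74 FPKM of Flt1 and 4.33, 4.90 and 4.94 FPKM of Pecam1. Flt1 fell by 0.63 ± 0.12 on the log2 scale against all strains (adjusted p = 1.62e-05 in limma), and Pecam1 fell by 0.31 ± 0.09 (0.0262). DBA/2J was the next lowest in Flt1 with 5.06, 6.83 and 8.62 FPKM, a difference of -0.44 ± 0.12 (0.00701), followed by BXD51 with 6.44, 7.37 and 8.03. The highest Flt1 means were those of SM/J (10.98, 12.7 and 12.7 FPKM), LG/J (11.6, 11.9 and 11.9) and BXD43 (11.2, 11.7 and 12.1). None of these 3 passed with all mice.

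Pecam1 was highest in CXB-6/ByJ, with 7.16, 9.26 and 9.30 FPKM, a difference of 0.43 ± 0.09 (adjusted p = 0.000466 in limma). The same strain was the highest in Itm2a, with 26.4, 27.5 and 27.7 FPKM and a difference of 0.39 ± 0.08 (0.000254). BXD-6/TyJ (6.20 and 9.09 FPKM) and BXD70 (6.95, 7.82 and 8.09 FPKM) had the next Pecam1 means, of which BXD70 passed at 0.28 ± 0.09 (0.0471). RIIIS/J (4.59, 4.70 and 5.41 FPKM) and CXB-13/HiAJ (4.52, 5.51 and 5.52 FPKM) followed BXH-9/TyJ at the low end.

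Slco1a4 was lowest in SWR/J, with 7.35, 8.12 and 11.4 FPKM and a difference of -0.53 ± 0.13 (adjusted p = 0.00188 in limma). BXD86 (8.70, 9.02 and 10.8 FPKM) and MA/MyJ (7.72, 9.54 and 11.5 FPKM) differed by -0.44 ± 0.13 each (0.0173 and 0.0168), and DBA/2J and SM/J also passed, at -0.42 ± 0.13 (0.0254) and -0.41 ± 0.13 (0.0292). CXB-13/HiAJ had the highest mean, with 16.1, 17.7 and 19.5 FPKM and a difference of 0.39 ± 0.13 (0.0409). CXB-6/ByJ (12.7, 20.2 and 20.3 FPKM) and BXD-16/TyJ (16.6, 17.7 and 18.1 FPKM) came next. CXB-13/HiAJ was thus at the high end for the transporter Slco1a4 and among the 3 lowest strains for the adhesion molecule Pecam1, and SM/J had the highest Flt1 mean and a low Slco1a4 mean.

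Itm2a was lowest in BXA-4/PgnJ (14.1, 15.5 and 15.98 FPKM), at -0.41 ± 0.08 (adjusted p = 9.43e-05 in limma), and in A/J (14.7, 16.3 and 17.6 FPKM), at -0.33 ± 0.08 (0.00357). BXD48 and BXD75 also passed in that direction, at -0.27 ± 0.08 and -0.26 ± 0.08. BXD-16/TyJ (24.6, 26.9 and 28.9 FPKM) was second to CXB-6/ByJ, at 0.36 ± 0.08 (0.000772), and BXD-40/TyJ was higher by 0.29 ± 0.08 (0.0125).

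Over all members, 28 of 594 pairs of member and strain passed against the mean of all strains, or 4.71%, 13 higher and 15 lower. The background over all pairs of gene and strain was 6.57%. Without OB-547, 49 of the 594 member pairs passed, 23 higher and 26 lower, on a background of 7.56%, and 25 pairs passed in both. The 3 lost pairs were Cldn5, Slc2a1 and Itm2a in BXD-12/TyJ itself, and most of the added ones were Slc2a1 and Cldn5, which rose from 5 to 13 and from 4 to 12 called strains. In both fits the called strains of Pecam1 numbered 3.

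Within a set of recombinant inbred strains, only the 2 parental genomes segregate, and the F test was run separately in each set. Among the 43 BXD strains, Cldn5, Slco1a4 and Itm2a passed (adjusted p = 0.000761, 0.0173 and 0.000546 in limma) on a background of 41.4% of genes. Slc2a1 missed the threshold there at 0.0588 and passed at 9.9e-06 without OB-547. Among the 18 AXB/BXA strains, Cldn5, Slc2a1 and Itm2a passed (0.000210, 0.000461 and 0.0234) on a background of 33.5%. Cldn5 and Slc2a1 had strain shares of 0.63 and 0.60 in this set.

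Among the 6 BXH strains, Flt1, Cldn5 and Slc2a1 passed (adjusted p = 0.00451, 0.0158 and 0.0205 in limma) on a background of 18.3%. None of the 6 members passed among the 7 CXB strains, where the background was 4.15%, and 2 of them, Itm2a and Pecam1, had an unadjusted p under 0.05. Among the 25 classical inbred strains, Flt1, Slc2a1, Slco1a4 and Itm2a passed (3.3e-05, 0.000107, 0.000533 and 0.00555) on a background of 61.9%, and Cldn5 had 0.0623. Pecam1 passed in none of the 5 sets.

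The parents of the sets were compared directly, with 3 mice each, and the 4 contrasts share the C57BL/6J mice. C57BL/6J had the highest mean of the 5 parents in Cldn5, Flt1, Pecam1 and Slc2a1. For Slc2a1, the C57BL/6J mice had 32.6, 33.9 and 34.6 FPKM. DBA/2J had 22.7, 23.0 and 24.99 FPKM, C3H/HeJ 23.4, 24.0 and 24.7, A/J 22.7, 28.4 and 29.5, and BALB/cJ 23.1, 28.1 and 31.6. All 12 mice of these 4 strains were below the 3 C57BL/6J mice. For Flt1, C57BL/6J had 10.2, 10.6 and 11.1 FPKM, above all 3 DBA/2J mice given above.

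DBA/2J was lower than C57BL/6J in Flt1 by a log2 difference of -0.60 ± 0.17 (SE, adjusted p = 0.0102 in limma) and in Slc2a1 by -0.50 ± 0.16 (0.0375), where 6.88% of all genes passed. A/J was lower in Itm2a, with mice of 14.7 to 17.6 FPKM against 20.9 to 23.5 in C57BL/6J and a difference of -0.44 ± 0.12 (0.00534), where 8.01% of all genes passed. No member passed for C3H/HeJ (background 7.59%) or BALB/cJ (6.79%), with 3 and 0 unadjusted p under 0.05. For C3H/HeJ, Flt1 at -0.47 ± 0.17 had an adjusted p of 0.0658 and Slc2a1 at -0.47 ± 0.16 had 0.0522 in limma. Without OB-547, which lies in none of these strains but adds to the shared residual spread, these 2 passed as well (0.0338 and 0.00231). Slco1a4 in DBA/2J, at -0.50 ± 0.18, missed the threshold in both fits (0.0831 and 0.0673). Of the 24 pairs of member and contrast, 21 lay below C57BL/6J and 3 passed. Each of the 3 calls was lost in limma in 2 of the 3 fits that left 1 mouse out of every strain, with adjusted p of 0.159 and 0.246 for Flt1, 0.215 and 0.358 for Slc2a1 and 0.248 and 0.0522 for Itm2a.

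**Figure D2:**
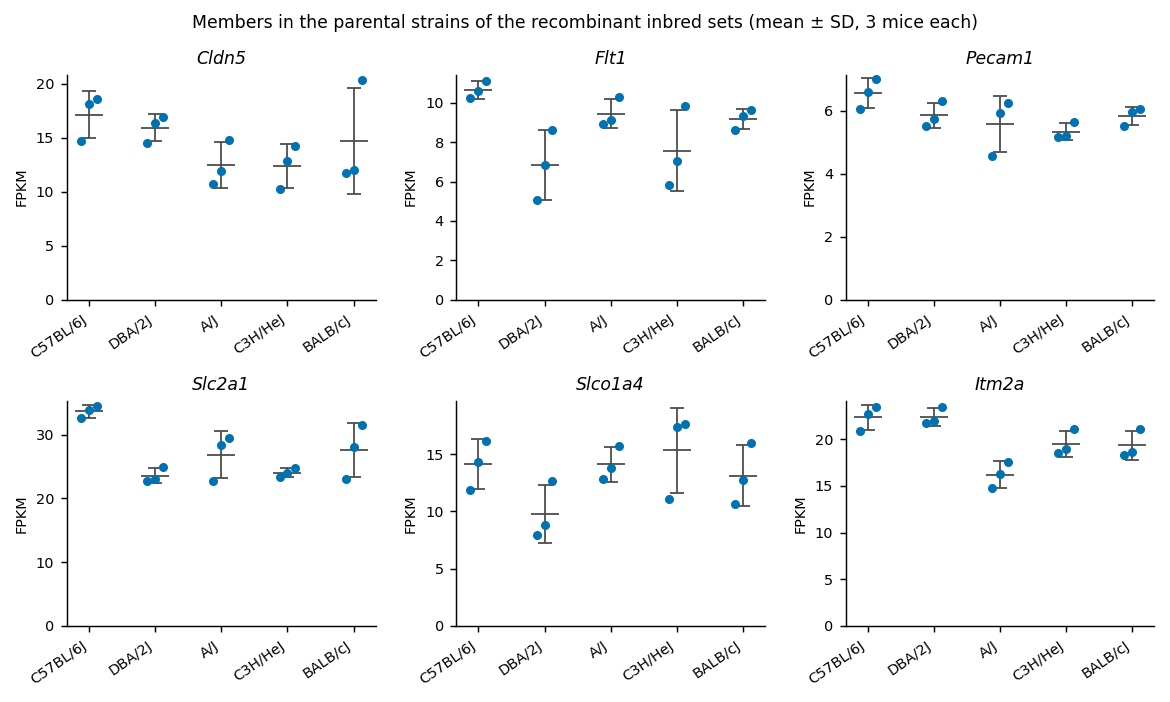
FPKM of the 6 members in the 3 mice (points) of each of the 5 parental strains, with the mean and SD as bars and an axis from 0. The 3 C57BL/6J mice lie above all others in Slc2a1 (32.6 to 34.6 FPKM), and the A/J mice lie below the C57BL/6J mice in Itm2a (14.7 to 17.6 against 20.9 to 23.5 FPKM).

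The recombinant strains were set beside their parents. For Slc2a1, 40 of 43 BXD strain means lay between the means of DBA/2J (23.6 FPKM) and C57BL/6J (33.7 FPKM), 2 below and 1 above. BXD-12/TyJ was 1 of the 2 below, through mouse OB-547, and its other 2 mice, given above, lay between the parents. All BXD counts here include that mouse. For Flt1, 36 BXD means lay between 6.84 and 10.7 FPKM, 7 above and 0 below. For Itm2a, both parents had a mean of 22.4 FPKM, while the BXD means ran from 16.9 to 26.8, with 30 below and 13 above both parents. In the AXB/BXA set, 16 of 18 Itm2a means lay between A/J (16.2 FPKM) and C57BL/6J (22.4 FPKM), and 14 of 18 Cldn5 means lay between 12.5 and 17.2 FPKM. The Slc2a1 means of this set spread beyond both parents, from 22.1 to 45.2 FPKM, with 7 of 18 below A/J and 4 above C57BL/6J.

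The deposited assembly holds 16 transcripts of the members. Flt1 had 2 forms that share 1 start site, and the shorter ends inside the span of the longer. The 30-exon form, TCONS_00279400, matches a transcript annotated with 1333 residues in GENCODE M21, the full receptor with its kinase domain, and had 6.58 ± 0.927 FPKM. The 13-exon form, TCONS_00279404, ends at 147635159, matches an annotated transcript of 688 residues, which lacks the kinase and is known as soluble Flt1, and had 2.63 ± 0.995 FPKM. Shares here and below are of the summed FPKM of a gene's deposited transcripts, not of the FPKM of the gene. The shorter form made up 27.6% ± 8.65 of the deposited Flt1 transcripts per mouse, and this share differed between strains (adjusted p = 0.0334 in limma, background 38.2%).

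The short form was at 3.02, 3.44 and 4.14 FPKM in the C57BL/6J mice and at 0.269, 0.657 and 1.51 in the DBA/2J mice, with no overlap. The long form was at 6.54, 6.64 and 6.75 FPKM in C57BL/6J and at 4.54, 5.76 and 7.11 in DBA/2J, which overlap. Differences between these parents in single forms were not tested. BXH-9/TyJ, the strain with the lowest Flt1, also had the lowest share of the short form, with a mean of 9.61% and short-form values of 0.000265, 0.195 and 1.54 FPKM. DBA/2J (11.1%), BXD51 (11.8%) and C57BLKS/J (13.7%) had the next shares, the last 2 strains named after their values were seen. KK/HlJ had the highest mean share, 38.6%, with mice of 34.6%, 38.3% and 42.9%. The median over BXD strains was 26.2% and over classical inbred strains 31.6%. Within the BXH set the share ran from 9.61% to 34.0%.

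**Figure D3:**
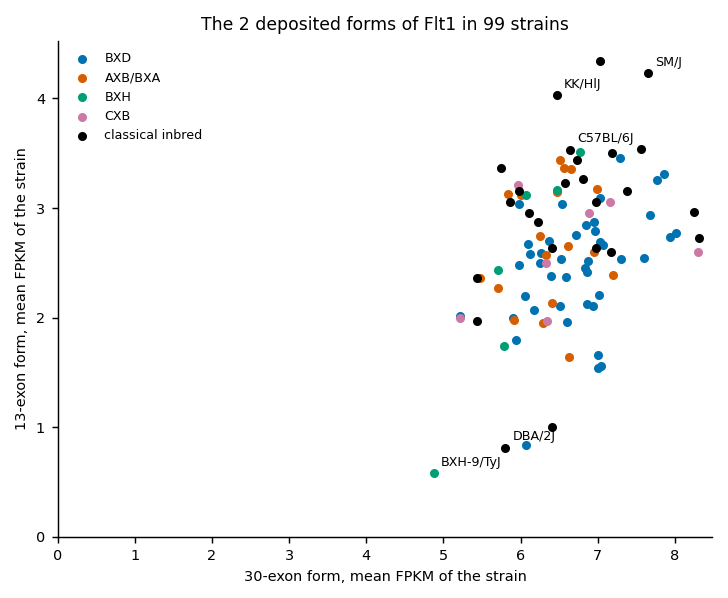
Mean FPKM of the 30-exon form (horizontal) and the 13-exon form (vertical) of Flt1 in each of 99 strains, coloured by set, with both axes from 0. BXH-9/TyJ, BXD51 and DBA/2J lie at the bottom with 0.580 to 0.835 FPKM of the short form, and SM/J lies at the upper right with 4.23 FPKM of the short and 7.65 FPKM of the long form.

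Slc2a1 had 3 transcripts from 2 start sites. The annotated 10-exon form, TCONS_00239683, made up 93.6% ± 3.32 of the summed FPKM of these 3 deposited forms. TCONS_00239686 shares its start and extends the 3′ side to 119139901, with 3.90% ± 2.16, and the 12-exon form TCONS_00239682, with a start at 119106130, had 2.52% ± 2.14. In this order the 3 forms had means of 24.8, 1.03 and 0.661 FPKM, against 28.7 FPKM for the gene, so the shares leave out part of its level. All 3 shares passed (adjusted p = 3.68e-08, 6.81e-08 and 0.0379 in limma). In BXD-9/TyJ the main form made up 100% of the deposited forms in all 3 mice, and the lowest strain value was 85.5%, in the single I/LnJ mouse. In the parents of the BXD set, TCONS_00239686 was at 4.83% to 5.57% in the C57BL/6J mice and 2.75% to 4.48% in the DBA/2J mice, with no overlap. This difference between 3 and 3 mice was not tested, and over all mice the form was low and at 0 in 21.

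Slco1a4 had 6 transcripts from 3 start sites, of which the annotated 17-exon form TCONS_00298585 was the main one at 40.4% ± 15.1. Its share was the only one of the 6 to pass (adjusted p = 0.000568 in limma). It was highest in NZB/BlNJ, with 63.2%, 68.5% and 76.3%, and lowest in the single I/LnJ mouse at 13.2%. The 3 Pecam1 transcripts, of 14, 15 and 16 exons, took shares of 40.2% ± 22.0, 49.6% ± 22.7 and 10.2% ± 12.1, and none passed (adjusted p from 0.297 to 0.892 in limma). Their means were 2.09, 2.59 and 0.533 FPKM, against 6.12 FPKM for the gene. The wide SDs of the first 2 forms, which differ by 1 exon, show how unevenly FPKM was divided between them from mouse to mouse. Of all 16 transcripts 9 passed the strain test in level, on a background of 46.8%, and of 10 start sites 6 passed, on a background of 50.5%. The 3 Pecam1 transcripts and its 2 start sites did not pass.

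Covariation among members was measured on 2 levels. Within strains, each mouse was taken as its deviation from the mean of its strain on log2(FPKM + 1), over 279 mice of strains with at least 2 mice, and p came from 100000 permutations of mice within strains. There were 15 pairs, and p was adjusted over these. Flt1 and Slco1a4 varied together most, at r = 0.52 (Pearson) and rho = 0.50 (Spearman) (p = 1e-05, the smallest that the permutations can give, adjusted 7.5e-05 for both). Flt1 and Pecam1 had r = 0.38 and rho = 0.36 (p = 1e-05, adjusted 7.5e-05 for both). Pecam1 and Slco1a4 had r = 0.28 (permutation p = 0.00012, adjusted 0.0006) and rho = 0.33 (p = 2e-05, adjusted 0.0001). With the 2 mice that lay farthest from the first gene's median left out, r was 0.50, 0.33 and 0.29, and without OB-547 it was 0.51, 0.34 and 0.26, again past the threshold. A receptor, a transporter and a junctional adhesion molecule thus formed the 3 pairs that passed.

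The other 12 pairs did not pass in both measures. Cldn5 and Slc2a1, the junction protein and the glucose carrier, had r = -0.25 (permutation p = 0.425, adjusted 0.553) and rho = 0.17 (0.0268, adjusted 0.1005), and without OB-547 r = 0.20 (0.0166, adjusted 0.0624) and rho = 0.21 (0.00488, adjusted 0.0183). The sign of Pearson's r for this pair rests on that 1 mouse. Without OB-547 the other pairs outside the 3 had r from -0.08 to 0.09. The median r of all 15 pairs was 0.02 with all mice and 0.07 without OB-547.

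**Figure D4:**
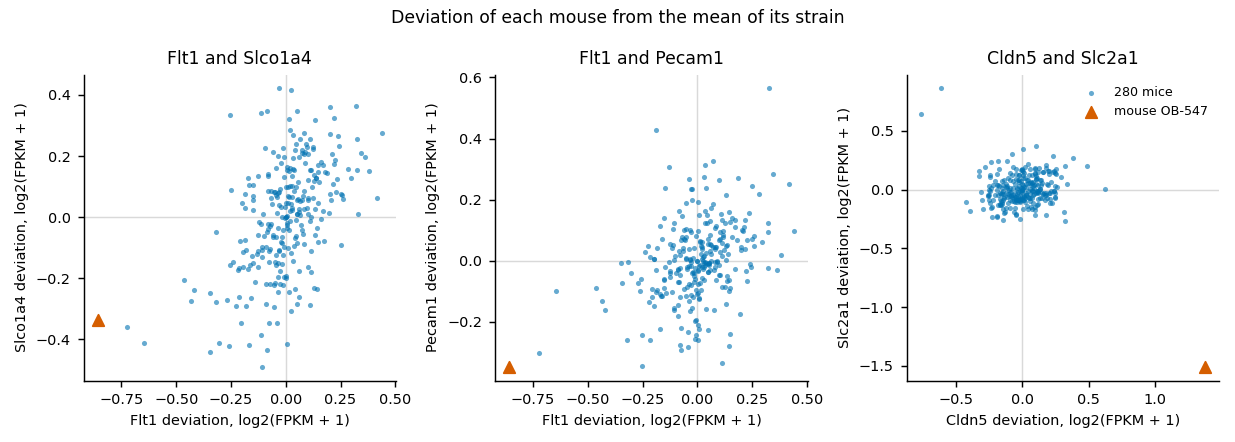
Deviations of single mice from their strain mean on log2(FPKM + 1) for 3 pairs of members, with the other mice as blue points and mouse OB-547 as an orange triangle; the 2 strains with 1 mouse lie at 0. The points rise together for Flt1 and Slco1a4 (r = 0.52) and for Flt1 and Pecam1 (r = 0.38), and OB-547 lies far from the rest for Cldn5 and Slc2a1, with the other 2 mice of its strain at the upper left.

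Over the means of 99 strains, 7 pairs passed in both measures. Flt1 and Slc2a1 had r = 0.47 and rho = 0.44 (permutation p = 1e-05, adjusted 0.00015 for both), and 0.44 and 0.42 without OB-547. Cldn5 and Pecam1 had r = 0.40 (6e-05, adjusted 0.0003) and rho = 0.45 (2e-05, adjusted 0.00015), and 0.48 for both without OB-547. Flt1 and Pecam1 had r = 0.38 (6e-05, adjusted 0.0003) and rho = 0.34 (0.00042, adjusted 0.0021). Cldn5 and Itm2a had r = 0.34 (0.00084, adjusted 0.00315) and rho = 0.33 (0.00091, adjusted 0.00341). Slco1a4 and Itm2a had r = 0.32 (0.00133, adjusted 0.00399) and rho = 0.31 (0.0017, adjusted 0.0051).

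Slc2a1 and Slco1a4 had r = 0.29 (permutation p = 0.00327, adjusted 0.00817) and rho = 0.27 (0.00824, adjusted 0.0177), and Pecam1 and Slc2a1 had r = 0.27 (0.00712, adjusted 0.0153) and rho = 0.29 (0.00382, adjusted 0.00955). With the 2 strains that lay farthest from the first gene's median left out, r of the 7 pairs was between 0.22 and 0.50. Without OB-547 these 7 passed again, and Cldn5 and Flt1 passed as well, at r = 0.25 and rho = 0.24 (permutation p = 0.0115 and 0.0180, adjusted 0.0217 and 0.0338), but r was 0.13 with all mice. Cldn5 and Slc2a1 had r = -0.23 (p = 0.0232, adjusted 0.0436) and rho = -0.04 with all mice, and r = -0.06 without OB-547. The pair that varied together most within strains, Flt1 and Slco1a4, had r = 0.12 (p = 0.230, adjusted 0.314) and rho = 0.11 over strain means. Whether the 2 levels differ was not tested. Flt1 and Pecam1 was the pair that passed on both.

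**Figure D5:**
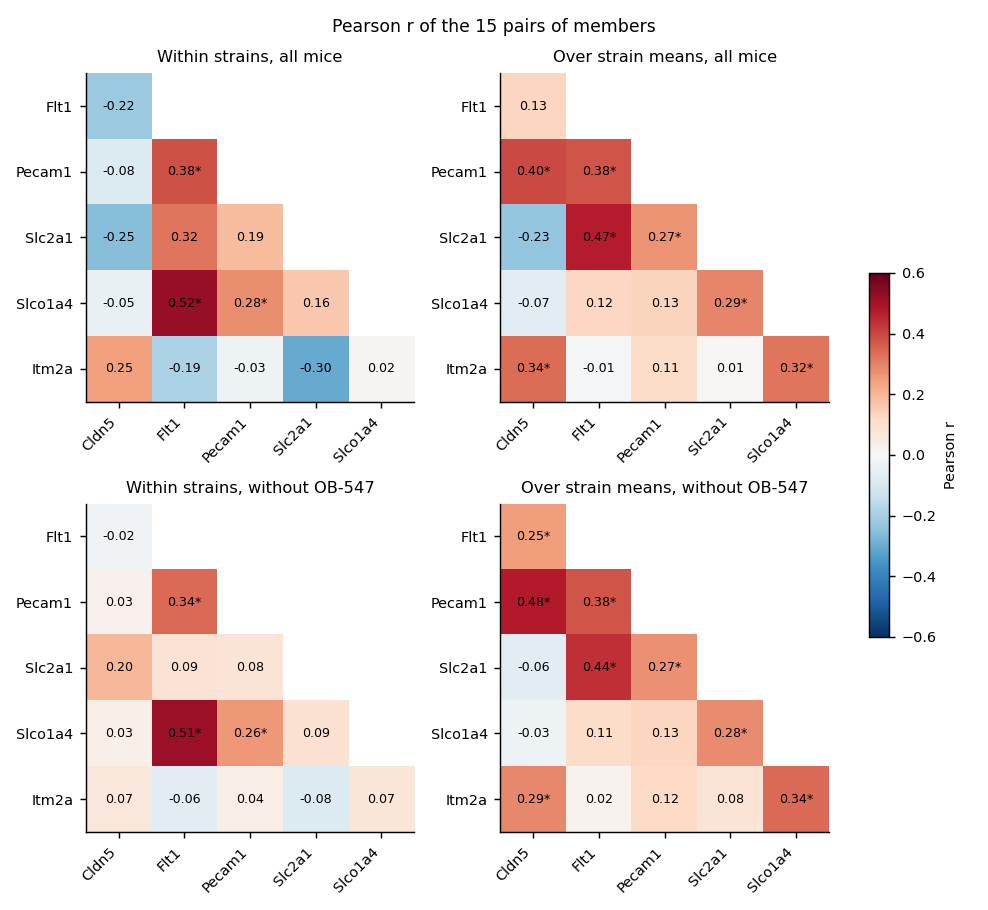
Pearson's r of the 15 pairs of members within strains (left) and over strain means (right), with all mice (top) and without mouse OB-547 (bottom), on a colour scale from -0.6 to 0.6; a star marks pairs past the adjusted threshold in both Pearson's r and Spearman's rho. Within strains the stars fall on Flt1, Pecam1 and Slco1a4, and over strain means on 7 pairs with all mice and 8 without OB-547.

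Within the sets, the median r of strain means over the 15 pairs was 0.19 among 43 BXD strains, 0.21 among 18 AXB/BXA strains, 0.15 among 25 classical inbred strains, 0.33 among 7 CXB strains and 0.72 among 6 BXH strains. The BXH value rests on 6 strains that include BXH-9/TyJ, the lowest strain of Flt1 and Pecam1, and without it fewer than 6 strains remain. Strains of a recombinant set share 2 parents, while the permutations over strain means treat all 99 strains as exchangeable. AXB-18/PgnJ, AXB-19/PgnJ and AXB-20/PgnJ, whose sample titles name them all as forms of AXB19, were counted as separate strains throughout. Among BXD, AXB/BXA and classical inbred strains in turn, r was 0.51, 0.36 and 0.45 for Flt1 and Slc2a1, 0.24, 0.06 and 0.34 for Cldn5 and Pecam1, and 0.48, 0.59 and 0.21 for Flt1 and Pecam1. The BXD values, their median included, contain OB-547, and r within single sets was not computed without it. The lowest BXD value was that of Cldn5 and Slc2a1, at -0.50. As an alternative chosen after the data were seen, each strain mean was taken as its deviation from the mean of its set and permuted within sets. The same 7 pairs passed, with r from 0.26 for Cldn5 and Itm2a to 0.48 for Flt1 and Slc2a1. Without OB-547 this form also gave 7 pairs, in which Cldn5 and Flt1 (0.27, permutation p = 0.00674, adjusted 0.0144) took the place of Cldn5 and Itm2a (0.21, permutation p = 0.0394, adjusted 0.0739).

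Other genes of the vessel wall were described from lists of known genes. Of 8 junction genes with a locus of their own, 7 passed the strain test, of 18 transporter genes all 18, of 13 endothelial receptor and surface genes 12, of 10 endothelial transcription factors 8, of 12 Wnt signalling genes 11 and of 5 VEGF and angiopoietin ligands and their co-receptors 4, on the background of 75.4% given above. The median strain shares were 0.36, 0.33, 0.39, 0.19, 0.23 and 0.32, against 0.22 over all genes. Among these junction genes F11r (0.52), Cldn12 (0.42) and Cgn (0.41) had the highest shares. On the transporter list Slc7a5, the large neutral amino acid carrier, had 0.54 and Mfsd2a, the lipid carrier that restrains transcytosis, 0.48. Lrp8, a receptor on the same list, had 0.43 and Slco1c1, the thyroxine carrier, 0.42. The genes that did not pass, named after their values were seen, were the junction scaffold Tjp1 (share 0.03, adjusted p = 0.332 in limma), the adhesion molecule Icam2 (0.08, 0.101), the transcription factors Fli1 (0.09, 0.0834) and Ebf1 (0.03, 0.302), the Wnt receptor Fzd4 (0.08, 0.121) and the VEGF family ligand Pgf.

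Among receptors S1pr1 had a share of 0.52, Tie1 and Kdr (VEGFR2, the partner of Flt1 in VEGF signalling) 0.49 each and Cd34 0.44. The VEGF ligand Vegfa had 0.28, and Pgf, which signals through Flt1, had 0.09 (adjusted p = 0.0872 in limma) and passed without OB-547 (0.0157). The fenestration gene Plvap had a share of 0.77, and its mice ran from 1.62 to 13.6 FPKM.

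The members were set beside the endothelial genes Cdh5 (VE-cadherin) and Kdr. Without OB-547, the strain means of Cdh5 correlated with those of Pecam1 at r = 0.54, Cldn5 at 0.47, Flt1 at 0.45, Itm2a at 0.31, Slc2a1 at 0.24 and Slco1a4 at 0.10. Within strains the same values were 0.19, 0.18, 0.27, 0.17, 0.08 and 0.12. Within strains Kdr correlated with Flt1 and Pecam1 at 0.39 each, Slco1a4 at 0.30, Cldn5 at 0.19, Itm2a at -0.02 and Slc2a1 at -0.07. The 13 genes of the receptor and surface list, Kdr among them, went both ways, named after their values were seen. With Flt1, Tm4sf1 had -0.41, Ctla2a -0.06 and Emcn -0.03, and the others 0.06 to 0.39. With Cldn5, Emcn had -0.11, Eltd1 and Podxl -0.02 each, and the others 0.01 to 0.32. Slc2a1 correlated within strains with the transporter genes Mfsd2a, which carries lipids, and Slc7a5, which carries amino acids, at 0.53 and 0.43. These were the highest values among the 18 genes of the transporter list. The others ran from -0.23 (Slc16a1) to 0.31 (Slc3a2), on both sides of 0. These are descriptions over 278 mice or 99 strains that share libraries and scaling.

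The genes most like each member were found by Pearson's r over all other loci, here without OB-547. Within strains, Pecam1 was closest to Rgs5, a pericyte gene, and Kdr (r = 0.39 each), and Slco1a4 to a locus without a gene name (0.57), then Gpr116, an adhesion receptor, and Unc13c (0.54 and 0.52). Flt1 was closest to the neuronal gene Dnm3 and the same unnamed locus (0.74 each), then the neuronal gene Scn1a (0.73), followed by Gsk3b and Unc80 (0.72 each). Slc2a1 was closest to Glul (0.61), the glutamine synthetase of astrocytes, Klf15 and Plin4 (0.58 each), and Fgfr3 and Daam2 (0.54 each). Cldn5 was closest to Vwa1 (0.56), Ckb (0.55), Pkm (0.53) and B3gat3 (0.53), and Itm2a to Serpind1 (0.40), Cspg5, Aspa and Opalin (0.38 each). The 5 genes nearest to Flt1 or Slco1a4 included 1 locus without a gene name each, and those of Pecam1 included 2.

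Over strain means, the closest gene to Pecam1 was Cdh5 (0.54), followed by Cd93 (0.47) and Pank4 (0.46). Slc2a1 was closest to Hif3a and Xdh (0.66 each), then a locus without a gene name (0.63), and Plin4 and Mertk (0.59 each). Flt1 was closest to the same unnamed locus as within strains (0.64), then Agap1 (0.62), Trak1 and Tulp4, with Epas1, the hypoxia factor of endothelium, at 0.61. Itm2a was closest to Gkn3 (0.53), Cldn5 to Cdc42ep1 (0.61) and Olig1 (0.53), and Slco1a4 to Dctd (0.41) and Gm9866 (0.40). By the mean r over the 6 members, loci of 1 gene name among the first 15 were Cdh5 (0.35), Epas1, Lamb2 and Tinagl1 (0.29 each) and Foxf2 (0.28) over strain means, and Gpr116 (0.25), Unc13c (0.24), Phlpp1 (0.24) and Rgs5 (0.23) within strains. Of the first 15, 6 had no name over strain means and 4 within strains.

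Markers of other cells and the scaling of the libraries moved with some members. The ranges of summed FPKM below are over all 282 mice, and the highest pericyte, astrocyte and blood sums (102, 1730 and 580 FPKM) were those of OB-547, with 93.2, 1344 and 508 FPKM as the highest of the other mice. Within strains and without OB-547, the summed FPKM of the pericyte and smooth muscle list (10 of 14 genes measured, 49.3 to 102 FPKM per mouse) correlated with Cldn5 at r = 0.46, Pecam1 at 0.38, Itm2a at 0.29 and Slc2a1 at 0.22, past the threshold in both measures of a permutation test over 66 relations. The astrocyte list (6 of 6 genes, 749 to 1730 FPKM) correlated with Cldn5 at 0.38 and Slc2a1 at 0.33. The genes of these lists differed. Aldoc, with the highest mean of the astrocyte list (466 FPKM), had r = 0.47 with Cldn5. Gfap had 0.09, Aqp4 -0.09, Gja1 -0.21, Slc1a2 -0.24 and Slc1a3 -0.27. With Slc2a1, Aldoc had 0.33 and the other astrocyte genes -0.15 to 0.03. On the pericyte list, Vtn had 0.47 with Cldn5, Rgs5 and Abcc9 -0.06 each, Notch3 -0.003 and the others 0.11 to 0.30. With Itm2a, Abcc9 and Kcnj8 had -0.23 each, Cspg4 -0.13, Notch3 -0.05 and Higd1b -0.04. Vtn had 0.28 with Itm2a, Acta2 0.24, Rgs5 0.21, Tagln 0.18 and Pdgfb 0.02. With Slc2a1, Rgs5 had -0.08 and the others 0.09 to 0.27, and with Pecam1 all were positive, from 0.06 to 0.39. Plvap, the 1 of 4 fenestrated endothelium genes measured, correlated with Flt1 at -0.28 and Slco1a4 at -0.22. The oligodendrocyte list (6 of 6 genes, 1481 to 3763 FPKM) correlated with Cldn5 and Slc2a1 at 0.24 each and Itm2a at 0.21. The neuron list (6 of 6 genes, 1415 to 2095 FPKM) correlated with Slc2a1 at 0.28, Flt1 at 0.25 and Cldn5 at 0.22. Its genes differed too. With Flt1, Syt1 had 0.68, Rbfox3 0.23, Snap25 0.06, Tubb3 -0.004, Eno2 -0.008 and Stmn2 -0.11. With Cldn5, Eno2 had 0.41, Tubb3 0.38, Snap25 0.16, Rbfox3 0.02, Stmn2 -0.04 and Syt1 -0.27. With Slc2a1 they ran from -0.16 (Stmn2) to 0.43 (Tubb3). The vascular fibroblast and meninges list (4 of 9 genes, 16.5 to 119 FPKM) correlated with Pecam1 and Itm2a at 0.29 each, and the blood list (5 of 7 genes, 32.4 to 580 FPKM) with Slc2a1 at 0.25 and Flt1 at -0.21. The sum of all gene FPKM per library correlated with Flt1 at -0.49, Slco1a4 at -0.40, Cldn5 at 0.39 and Slc2a1 at 0.27. With that sum as a covariate, chosen after the data were seen, r of the 3 pairs that passed within strains was 0.44, 0.31 and 0.23, and Cldn5 and Slco1a4 passed as a 4th pair at 0.20. Over strain means the same 7 pairs passed with that covariate, and Cldn5 and Flt1 passed as well at r = 0.33 (permutation p = 0.00102, adjusted 0.00306). The 3 pairs within strains had r of 0.51, 0.34 and 0.26 with quantile normalization and 0.51, 0.36 and 0.27 with the median of each mouse subtracted, and passed in both. The part of the other cells in the results above was not tested.

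In all 66 relations within strains, 22 passed in both measures without OB-547 and 16 with it, and over strain means 4 and 5 passed. The 4 without OB-547 were the pericyte list with Flt1 (r = 0.43), Cldn5 (0.38) and Pecam1 (0.36), and the vascular fibroblast and meninges list with Pecam1 (0.32). No marker of the astrocyte, oligodendrocyte or neuron lists was at 0 in any mouse. The anterior pituitary list (6 of 7 genes) ran from 0.589 to 16462 FPKM, the choroid plexus list (5 of 6 genes) from 7.25 to 2101 and the microglia list (5 of 6 genes) from 25.4 to 128, and all 6 measured pituitary markers were at 0 in at least 1 mouse. The pituitary, choroid plexus and microglia lists did not pass with any member on either level without OB-547. In the strain test 9 of 10 pericyte, 4 of 4 fibroblast, 6 of 6 astrocyte, 4 of 5 microglia, 6 of 6 oligodendrocyte, 6 of 6 neuron, 5 of 5 blood, 6 of 6 pituitary and 5 of 5 choroid plexus genes passed, on the same background of 75.4%.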

How the data were processed

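RNA was sequenced from the hypothalamus of 282 mice without regard to strand. Alignment by the authors used STAR 2.3.1 on mm10. Their assembly, merged with GENCODE M2, came from Cufflinks 2.2.0, and the deposited FPKM values per gene, start site and transcript from Cuffnorm 2.2.1, which scales libraries to each other. The deposited genes were above 0 FPKM in at least 100 mice and above 1 FPKM in at least 50. FPKM carry no counts, so the depth behind each value is unknown and no counting interval is given. Strains were taken from the labels. No label says how the mice of a strain were housed or processed, so p-values measure the spread between these mice.

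Values were tested as log2(FPKM + 1) with limma 3.58.1 in R 4.3.3, by a moderated F test over 99 strains, by contrasts of 4 parents with C57BL/6J and of each strain with the mean of all strains, and within each set, with Benjamini-Hochberg adjustment over all features at 0.05. Fold changes are on that scale and understate changes of low genes. Each family of single strain tests was adjusted over all genes and strains together. Correlations were computed with Python 3.11.15, numpy 2.4.6, pandas 2.3.3 and scipy 1.17.1, with 100000 permutations, two-sided, and adjusted over 15 pairs of 6 members, where 21 had been planned for 7. Figures were drawn with matplotlib 3.10.9. The F test of genes over all strains, a parental contrast, a single strain contrast and the permutation within strains were checked on simulated data. The other tests were not. Named were the members, the 3 highest and 3 lowest strains of each and the strains that passed, up to 4 genes of each list by strain share, and the 5 loci most like each member, of which some are not reported here. The members and lists were chosen with earlier results of these data known. Alternatives were other pseudocounts, a minimum level, quantile normalization, median subtraction, mapped reads and uniquely mapped percentage from the study's sample list as covariates, other placements of OB-627, leaving out OB-547 or 1 mouse of each strain, a Kruskal-Wallis test, unlogged FPKM and, chosen after seeing the data, the gene FPKM sum as a covariate and strain means as deviations from the mean of their set. Promoter sequences came from RefSeq.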

Additional observations from a re-analysis of the deposited data

How the results depend on the processing

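Of the single values that passed in at least 1 measure with all mice (members, contrasts and pairs), 218 recomputed under an alternative kept their direction and side of the threshold, 22 lost significance and 0 reversed. Pairs that did not pass are outside these counts, and within strains 4 of them turned positive without OB-547: r went from -0.25 to 0.20 for Cldn5 and Slc2a1, from -0.08 to 0.03 for Cldn5 and Pecam1, from -0.05 to 0.03 for Cldn5 and Slco1a4 and from -0.03 to 0.04 for Pecam1 and Itm2a. With the gene FPKM sum as a covariate these 4 were positive too, and Cldn5 and Flt1 went from -0.22 to 0.19. Of the counts of calls, 52 moved by more than 1.5 times and 186 did not. Leaving out 1 mouse of every strain, by replicate number, moved most. Members called ranged from 3 to 6 in the strain test of genes, from 3 to 10 of 30 within sets (13 with all mice), from 1 to 3 in the parental contrasts and from 15 to 20 against all strains (28 with all mice). Calls of member transcripts were 5 in each of these fits (9 with all mice), of start sites 3 to 5 and of transcript shares 3 to 4 (6 each with all mice). Pairs that passed ranged from 1 to 3 within strains, where Flt1 with Slco1a4 passed in each fit, and from 4 to 5 over strain means. Over all features the ranges were 6413 to 8639 genes in the strain test, 577 to 646 for DBA/2J, 585 to 699 for A/J, 578 to 694 for C3H/HeJ, 491 to 703 for BALB/cJ, 48836 to 62604 pairs of gene and strain, 2767 to 3258 genes among BXD, 989 to 2076 among AXB/BXA, 420 to 1105 among BXH, 90 to 469 among CXB and 3571 to 6287 among classical inbred strains, 12475 to 16853 transcripts, 8513 to 11585 start sites and 8810 to 12001 shares. These fits hold fewer mice by construction. Parental calls of members rose from 3 to 5 with quantile normalization, with the median of each mouse subtracted and without OB-547, and single strain calls rose from 28 to 49 without OB-547. With mapped reads and unique percentage as covariates, 1055 genes passed among BXH strains, against 2576. Pecam1 and Slc2a1 had r = 0.22 over strain means with quantile normalization (permutation p = 0.0691). The cause of these changes was not tested. No paired analysis was possible because replicate numbers were given in the order of the samples and tie no mice of different strains together. The unknown depth of FPKM values limits what low forms, such as the short Flt1 form near 0, can show.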
